A study of Mus musculus with 8 samples.

Results

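Genes of the ATF4 stress response and of serine synthesis were followed in sorted leukaemic bone marrow cells of mice. They were 10, chosen by symbol from the 47729 genes of the count table: Atf4, Ddit3, Trib3, Chac1, Sesn2, Asns, Phgdh, Psat1, Shmt2 and Mthfd2. All 10 had a row and all 10 passed the filter on low counts, which left 13462 genes to test. In 4 C57BL/6 mice the leukaemic cells carried an shRNA against Fubp1 (the knockdown libraries), and these were set against 4 C57BL/6 mice whose cells carried a scrambled shRNA (the scrambled libraries). In both groups, marrow from donors given 5-fluorouracil had been transduced with a BCR-ABL1 retrovirus carrying a red reporter and with an shRNA lentivirus carrying Venus, and grown in irradiated recipients with a disease like chronic myeloid leukaemia. Live cells with both reporters and without lineage markers were sorted, and each library is 1 mouse. Neither the age of the mice nor the shRNA sequence was stated in the labels.

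ATF4 is a bZIP transcription factor whose mRNA is translated better when the initiation factor eIF2 is phosphorylated, as happens under amino acid shortage, haem shortage, unfolded protein or viral RNA. It then raises genes for amino acid supply, among them the asparagine synthetase gene Asns and the serine pathway, and genes that act on the response itself, such as Ddit3 (CHOP) and Trib3. Serine made by Phgdh, Psat1 and Psph feeds Shmt2, the mitochondrial enzyme that loads its carbon unit onto folate, and Mthfd2 acts on the loaded folate next. Haem-regulated control of eIF2 is a known feature of red cell precursors. The 14 erythroid markers in the table summed to 7371 to 11688 CPM (counts per sequencing depth with a TMM correction, the unit used throughout) in the knockdown and to 9303 to 10383 CPM in the scrambled libraries. Behind these sums 8 of the 14 were called, where 15.3% of all tested genes were, in both directions. Hbb-bs, Hbb-bt and Alas2, genes of haemoglobin and haem synthesis, rose (Hbb-bs to 309% of the scrambled mean), and Gata1, Klf1, Epor, Ermap and Car2 fell (Ermap to 65.2%). Their part in the results below was not tested.

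Total counts ran from 24042761 to 44761356 in the knockdown and from 22465303 to 38495006 in the scrambled libraries. The targeted gene, Fubp1, measured 281, 228, 220 and 239 CPM in knockdown replicates 1 to 4, and 296, 284, 291 and 396 CPM in scrambled replicates 1 to 4. The groups did not overlap (exact two-sided permutation p = 0.0286, the smallest 4 against 4 allows), and edgeR's quasi-likelihood test over all genes gave an adjusted p of 0.0604. Markers of other marrow cells differed between libraries, and several lists had mostly fitted changes above 0. These were 10 of 10 tested early granulocyte, 7 of 7 monocyte and macrophage, and 3 of 4 mature neutrophil markers. They were also 4 of 4 mast cell and basophil and 7 of 10 progenitor markers, beside 6752 of all 13462 tested genes. By edgeR 1 early granulocyte marker was called and 0 in each of the other lists named, where 15.3% of all tested genes were. The summed level of the 12 early granulocyte markers in the table was 96.5 to 3786 CPM in the knockdown and 42.1 to 350 CPM in the scrambled libraries, with knockdown replicate 3 at the low end of its group; in bulk samples fewer cells of a type and less RNA per cell cannot be told apart. Of 10 B cell markers 9, and of 12 T and NK cell markers 11, stayed under 1 CPM in every library. The 12 immediate early genes, Atf3 among them, which respond quickly to handling and to signals, summed to 3597, 6824, 7175 and 2538 CPM in knockdown replicates 1 to 4 and to 4558, 3509, 2153 and 2813 CPM in scrambled replicates 1 to 4.

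None of the 10 genes passed the test between knockdown and scrambled libraries. By edgeR's quasi-likelihood test with Benjamini-Hochberg adjustment over all genes and a threshold of 0.05, 0 of 10 were called, where 15.3% of all tested genes were. At an unadjusted p under 0.05 there were 4, namely Sesn2, Phgdh, Trib3 and Chac1, where 33.5% of all genes had such a p. DESeq2 called 2, Phgdh and Sesn2, where it called 23.1% of the genes it tested, and limma-voom 0, where it called 13.1%. Without the filter on low counts edgeR called 1, Sesn2, and 6.08% of the genes with a count. By the authors' deposited table Phgdh had an adjusted p of 0.0250 and Sesn2 of 0.0162, and the other 8 had 0.0913 or more. The fitted change was above 0 in 7 of the 10, with a median of 0.14 on the log2 scale, beside 0.00 over all tested genes. Phgdh and Sesn2 had no overlap between the groups, 2 of 10 genes, against 20.7% of all genes tested.

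**Figure D1:**
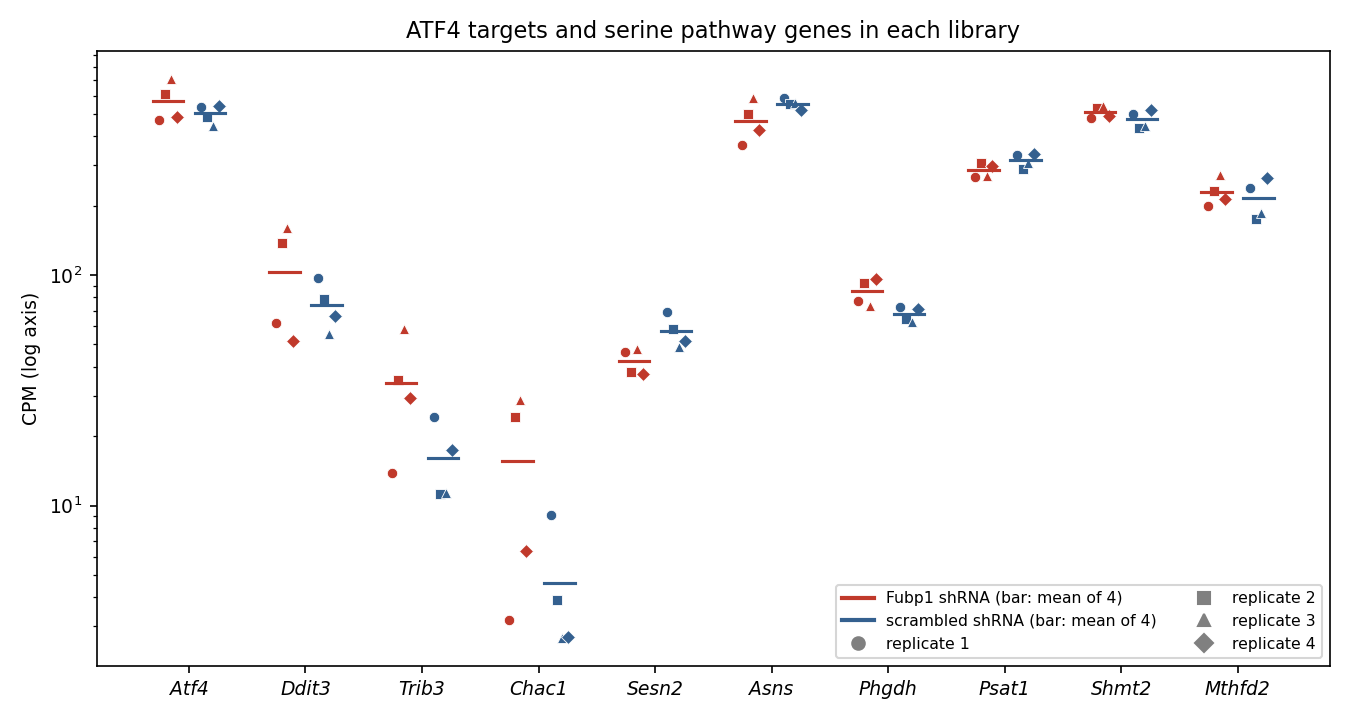
CPM on a log axis for each of the 10 genes, with Fubp1 shRNA libraries in red and scrambled shRNA libraries in blue to their right; each point is 1 mouse, its shape gives the replicate number, and bars are means of 4. Chac1, Trib3 and Ddit3 spread widely in the knockdown group, with replicates 2 and 3 high, while Phgdh and Sesn2 have no overlap between groups.

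The mRNA of the regulator itself was abundant and did not pass the test, and ATF4 protein was not measured. Atf4 (ENSMUSG00000042406, chr15:80255184-80257541, plus strand, GRCm38) measured 468, 607, 710 and 484 CPM in knockdown replicates 1 to 4, and 535, 485, 443 and 543 CPM in scrambled replicates 1 to 4. Knockdown replicates 2 and 3 were above every scrambled library and replicates 1 and 4 lay within their range. The log2 fold change was 0.18 (SE 0.14, 95% interval -0.13 to 0.49, adjusted p = 0.401 by edgeR). It was 0.04 without knockdown replicate 3. With the level of the early granulocyte markers as a covariate it was 0.49 and passed (adjusted p = 0.0215). With the level of the immediate early genes (without Atf3) as a covariate, a fit added after seeing the data, it was -0.01 (adjusted p = 0.979). The early granulocyte level was 2.24, 1.58, -1.62 and 3.34 in knockdown replicates 1 to 4. In scrambled replicates 1 to 4 it was -2.66, -1.06, 0.02 and -1.83. That level thus goes partly with the group. In every fit with it, here and below, marker level and knockdown cannot be fully told apart.

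Ddit3, Trib3 and Chac1, which act on the response itself or on survival, varied most between mice. Ddit3, which encodes the pro-apoptotic bZIP factor CHOP (ENSMUSG00000025408, chr10:127290774-127296288, plus strand), measured 62.1, 138, 160 and 51.7 CPM in knockdown replicates 1 to 4, and 96.7, 78.9, 55.4 and 66.6 CPM in scrambled replicates 1 to 4. Knockdown replicates 2 and 3 were the highest of the 8 libraries and replicate 4 the lowest. Its log2 fold change was 0.47 (SE 0.38, adjusted p = 0.431 by edgeR). Its gene body overlaps Mars on the opposite strand and a second model named Ddit3, and no strand setting for the authors' counting is stated, so its count is uncertain.

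Trib3, a pseudokinase that binds AKT and ATF4 (ENSMUSG00000032715, chr2:152337422-152344032, minus strand), measured 13.9, 35.2, 58.4 and 29.2 CPM in knockdown replicates 1 to 4, and 24.3, 11.2, 11.4 and 17.4 CPM in scrambled replicates 1 to 4. Knockdown replicates 2, 3 and 4 lay above all 4 scrambled libraries, and replicate 1 lay within their range. Its log2 fold change was 1.09 (SE 0.43, 95% interval 0.09 to 2.09, adjusted p = 0.121 by edgeR). It was 0.69 without knockdown replicate 3. It passed with the early granulocyte covariate, at 1.87 (adjusted p = 0.0364), and was 0.69 with the immediate early covariate (adjusted p = 0.350).

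Chac1, a glutathione-degrading enzyme (ENSMUSG00000027313, chr2:119351229-119354381, plus strand), had the largest ratio of means among the 10 genes and the widest spread. It measured 3.18, 24.2, 28.7 and 6.36 CPM in knockdown replicates 1 to 4, and 9.13, 3.91, 2.67 and 2.70 CPM in scrambled replicates 1 to 4. Within the knockdown group the highest library was 9.01 times the lowest, and within the scrambled group 3.41 times. The mean was 15.6 ± 12.7 CPM in knockdown and 4.60 ± 3.07 CPM in scrambled libraries (SD, n = 4 per group). The log2 fold change was 1.76 (SE 0.74, 95% interval 0.06 to 3.45, adjusted p = 0.137 by edgeR), 3.02 with the early granulocyte covariate (adjusted p = 0.0622) and 0.49 with the immediate early covariate (adjusted p = 0.557).

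Sesn2, a sestrin that senses leucine and holds back mTORC1 (ENSMUSG00000028893, chr4:132492032-132510501, minus strand), had the smallest p of the 10 genes, and its fitted change was downward. It measured 46.5, 37.9, 47.7 and 37.2 CPM in knockdown replicates 1 to 4, and 69.4, 58.4, 48.6 and 51.6 CPM in scrambled replicates 1 to 4. Every knockdown value was under every scrambled value, though the closest pair was under 1 CPM apart. Its log2 fold change was -0.43 (SE 0.13, 95% interval -0.73 to -0.13, adjusted p = 0.0551 by edgeR), a knockdown level of 74.2% of the scrambled level. It passed without knockdown replicate 3 (-0.50, adjusted p = 0.0325) and with the immediate early covariate (-0.55, adjusted p = 0.0353), and was -0.20 with the early granulocyte covariate (adjusted p = 0.480). The gene model Gm12981 overlaps it on the same strand, so reads could be assigned to either.

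Promoter windows of all genes were also searched for 1 motif. The C/EBP-ATF response element, which ATF4 binds as a dimer with a C/EBP factor, was searched as TGATGNAA on both strands from 250 bases before to 50 bases after each RefSeq start (GRCm38.p6). It was found in 3 of the 10 genes, each with at least 1 window, and in 4.51% of 27025 genes, or 3.97% of 32851 windows of the same length. The 3 were Chac1, Trib3 and Asns, and a match is a description of the letters and not of binding. The sequences are printed 5′ to 3′ on the strand of the gene, with the match in capitals; the matches in Chac1 and Trib3 read on the opposite strand. For Trib3 the match lies after the RefSeq start, so only 30 bases around it are shown.
Chac1, chr2:119350992-119351141, plus strand: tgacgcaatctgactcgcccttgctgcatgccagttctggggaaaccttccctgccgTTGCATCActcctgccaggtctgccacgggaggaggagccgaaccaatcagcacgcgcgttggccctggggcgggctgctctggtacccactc
Trib3, chr2:152344028-152344057, minus strand: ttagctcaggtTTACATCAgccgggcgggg
Asns, chr6:7693210-7693359, minus strand: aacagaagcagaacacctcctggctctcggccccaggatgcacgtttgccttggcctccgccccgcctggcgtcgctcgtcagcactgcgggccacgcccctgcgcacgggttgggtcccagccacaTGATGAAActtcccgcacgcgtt

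The matches lie from base -193 to -186 in Chac1, from 15 to 22 in Trib3 and from -23 to -16 in Asns, counted from the RefSeq start with no base 0. The RefSeq starts differ from those of the GENCODE gene positions given for each gene. Against the GENCODE positions, the Trib3 match (152344039 to 152344046) lies before the start, at 152344032. The Asns match (7693225 to 7693232) lies after the start, at 7693254. None of the 3 passed the test: the fitted log2 fold changes were 1.76 in Chac1, 1.09 in Trib3 and -0.24 in Asns, and no difference between them was tested. Ddit3, whose spread between mice came next after Chac1 and Trib3, held no match in its window, and bases further upstream were not searched.

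Asns, which makes asparagine (ENSMUSG00000029752, chr6:7675169-7693254, minus strand), measured 365, 498, 582 and 423 CPM in knockdown replicates 1 to 4, and 586, 549, 558 and 519 CPM in scrambled replicates 1 to 4. Knockdown replicates 1, 2 and 4 lay below all scrambled libraries, and replicate 3 lay just under the highest of them. Its log2 fold change was -0.24 (SE 0.13, 95% interval -0.54 to 0.05, adjusted p = 0.222 by edgeR). Without knockdown replicate 3 it was -0.38 and passed (adjusted p = 0.0310). With the early granulocyte covariate it was -0.01 (adjusted p = 0.962).

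None of the 3 enzymes of serine synthesis passed the test, and no difference between them was tested. Phgdh, the first enzyme of the pathway (ENSMUSG00000053398, chr3:98313170-98339990, minus strand), measured 77.1, 92.8, 73.6 and 95.9 CPM in knockdown replicates 1 to 4, and 72.9, 64.5, 62.8 and 71.2 CPM in scrambled replicates 1 to 4. All 4 knockdown libraries were above the scrambled ones, the closest pair by under 1 CPM. The log2 fold change was 0.32 (SE 0.10, 95% interval 0.10 to 0.55, adjusted p = 0.0582 by edgeR), 0.38 without knockdown replicate 3 (adjusted p = 0.0202) and 0.23 with the early granulocyte covariate (adjusted p = 0.369). Psat1, the aminotransferase of the next step (ENSMUSG00000024640, chr19:15904678-15947337, minus strand), measured 266, 305, 269 and 296 CPM in knockdown replicates 1 to 4, and 333, 288, 307 and 333 CPM in scrambled replicates 1 to 4. The groups overlapped, and the log2 fold change was -0.15 (SE 0.07, 95% interval -0.31 to 0.01, adjusted p = 0.171 by edgeR). Psph, the phosphatase that ends the pathway, averaged 33.9 ± 2.80 CPM in knockdown and 36.6 ± 2.81 CPM in scrambled libraries (SD, n = 4 per group; adjusted p = 0.422 by edgeR).

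The mitochondrial folate enzymes were close to level. Shmt2, which splits serine into glycine and a carbon unit (ENSMUSG00000025403, chr10:127517123-127522444, minus strand), measured 480, 531, 540 and 489 CPM in knockdown replicates 1 to 4, and 500, 435, 442 and 517 CPM in scrambled replicates 1 to 4. The log2 fold change was 0.11 (SE 0.07, 95% interval -0.06 to 0.27, adjusted p = 0.345 by edgeR). Mthfd2, the dehydrogenase and cyclohydrolase of the next steps (ENSMUSG00000005667, chr6:83305691-83325908, minus strand), measured 199, 232, 271 and 215 CPM in knockdown replicates 1 to 4, and 239, 175, 187 and 263 CPM in scrambled replicates 1 to 4. Its log2 fold change was 0.09 (SE 0.15, 95% interval -0.25 to 0.42, adjusted p = 0.730 by edgeR), with each group's libraries spread over the other's. Ndufa4l2 overlaps Shmt2 on the opposite strand, a pseudogene overlaps Psat1 on the opposite strand, and the gene model Gm43890 overlaps Mthfd2 on the same strand.

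**Figure D2:**
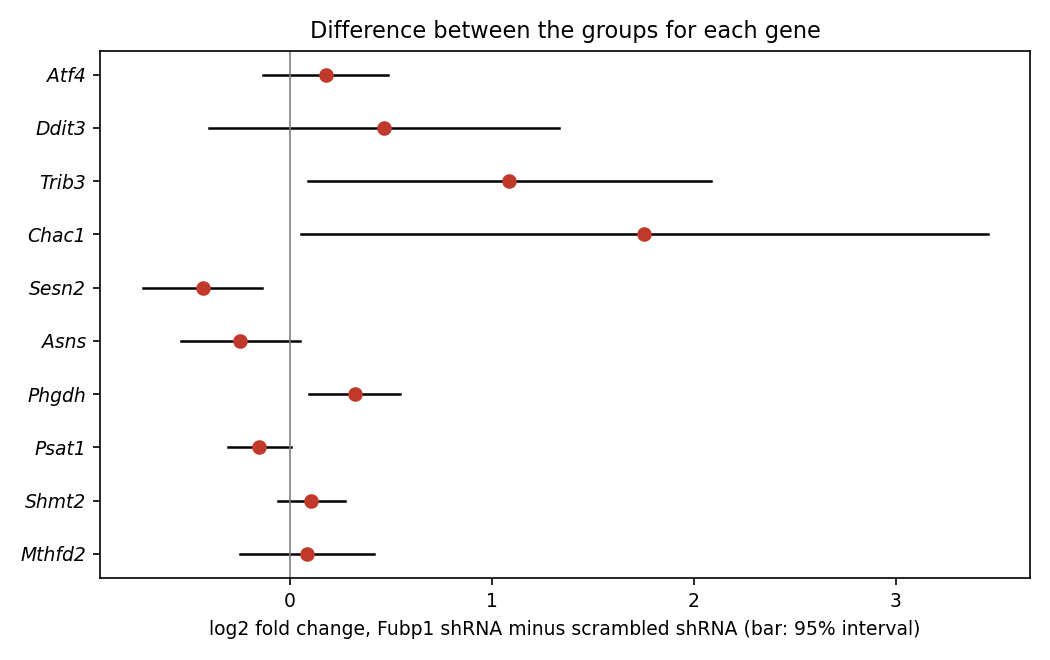
Log2 fold change, Fubp1 shRNA minus scrambled shRNA, from the fit over all genes, with its 95% interval, for each of the 10 genes. The interval of Chac1 runs from 0.06 to 3.45 and that of Shmt2 from -0.06 to 0.27; intervals are for 1 gene at a time and are not adjusted over the genes tested.

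Within the knockdown group replicate 3 was the highest library for 8 of the 10 genes, against 33.2% of all tested genes, and replicate 1 the lowest for 7, against 21.4%. The whole order 3, 2, 4, 1 from high to low was shared by 6 genes, against 6.60% of all; Phgdh, with replicate 4 highest and replicate 3 lowest, Psat1, Sesn2 and Ddit3 had other orders. Over all 8 libraries replicate 3 of the knockdown was the highest for 6 genes. In the scrambled group replicate 1 was the highest for 6 genes and replicate 4 for the other 4. Knockdown replicates 2 and 3 and scrambled replicate 1, where Chac1 and Ddit3 were highest, were also the 3 libraries with the highest sum of immediate early genes. The spread between mice of the same group, as an SD of log2 CPM, was 1.22 for Chac1, 0.72 for Trib3 and 0.62 for Ddit3, beside a median of 0.19 over all tested genes; it was 0.10 for Psat1 and 0.11 for Shmt2. The 0 calls among the 10 genes became 2 (Atf4 and Trib3, higher) with the early granulocyte covariate, a fit that called 4.51% of all genes. They became 1 (Sesn2, lower) with the immediate early covariate, which called 18.4% of all genes. Without knockdown replicate 3 they became 3 (Phgdh higher, Sesn2 and Asns lower), where 24.7% of all genes were called.

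**Figure D3:**
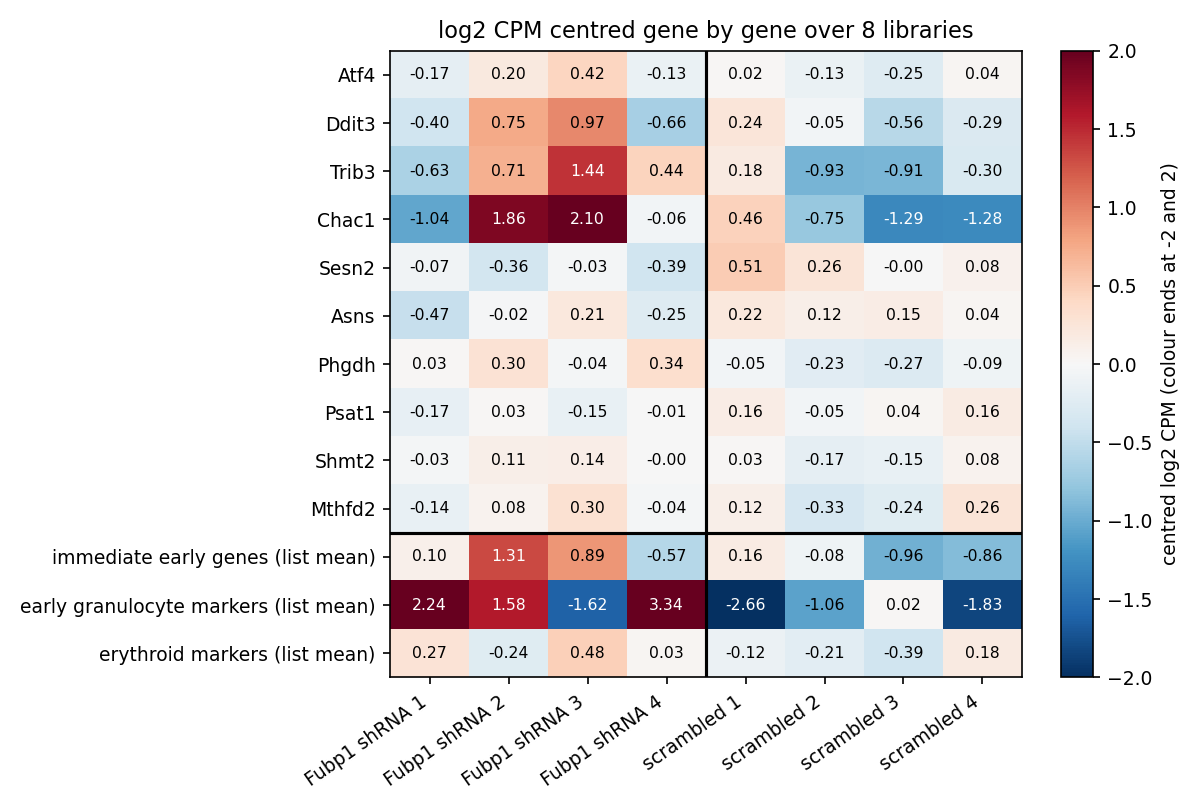
Log2 CPM of each gene minus its mean over the 8 libraries, for the 10 genes and, below the line, the mean of 3 marker lists; Fubp1 shRNA libraries are to the left of the vertical line, and colours end at -2 and 2. Chac1, Ddit3 and Trib3 are highest in knockdown replicates 2 and 3, as is the immediate early list, while the early granulocyte list is low in knockdown replicate 3.

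Levels between genes were compared as CPM per kilobase of exon. In the knockdown libraries the order was Atf4 (241 ± 48.1), Asns (171 ± 34.4), Shmt2 (164 ± 9.66), Psat1 (66.8 ± 4.53), Mthfd2 (65.7 ± 8.86), Ddit3 (60.0 ± 31.5), Phgdh (34.1 ± 4.48), Trib3 (16.1 ± 8.70), Sesn2 (12.2 ± 1.60) and Chac1 (9.54 ± 7.77; SD, n = 4 each). The ranges of 1 SD around neighbours in that order overlapped, except for Shmt2 above Psat1 and Phgdh above Trib3. These SDs are spreads between mice, and all genes were measured in the same libraries. An overlap of ranges thus does not tell whether 2 genes kept their order within each library. In the scrambled libraries Atf4 stood at 213 ± 19.8 and Chac1 at 2.81 ± 1.88 CPM per kilobase, and Sesn2 (16.4 ± 2.65) was above Trib3 (7.57 ± 2.93).

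The profile nearest to that of Sesn2 over the 8 libraries, by the root mean square difference of centred log2 CPM among 9286 genes averaging 5 CPM or more, was that of Ggact (0.08), followed by the cyclin G1 gene Ccng1 (0.09) and Wdr6 (0.10). Among the nearest to Atf4 were Usp54 (0.06) and Smndc1 (0.07).

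Of 15 sensors and brakes upstream of ATF4, the genes for eIF2 kinases, phosphatases and the exchange factor eIF2B, 1 rose and 1 fell, with a median log2 fold change of -0.08; over all tested genes 8.02% rose and 7.29% fell, and 15.3% were called in either direction. Ppp1ca, a catalytic subunit of protein phosphatase 1, fell to 77.9, 78.8, 83.2 and 77.6 CPM in knockdown replicates 1 to 4, against 125, 121, 112 and 108 CPM in scrambled replicates 1 to 4. No knockdown library reached the scrambled range (log2 fold change -0.55, SE 0.06, adjusted p = 0.00282 by edgeR), and no single library took that call away when dropped. Impact, an inhibitor of the kinase GCN2, rose to 32.1 ± 1.59 CPM in knockdown, against 24.3 ± 3.34 CPM in scrambled libraries (SD, n = 4 per group; adjusted p = 0.0343). Impact lost its call without any 1 library other than knockdown replicate 3 and scrambled replicate 4 (adjusted p up to 0.0949), and with the early granulocyte covariate (0.37, adjusted p = 0.174). The kinase genes Eif2ak1 (HRI), Eif2ak2 (PKR), Eif2ak3 (PERK) and Eif2ak4 (GCN2) had log2 fold changes of -0.07, -0.18, 0.08 and 0.11, with adjusted p of 0.452 or more. Ppp1r15a (GADD34), the stress-induced partner of the phosphatase, measured 183, 294, 409 and 157 CPM in knockdown replicates 1 to 4, and 239, 187, 155 and 173 CPM in scrambled replicates 1 to 4 (log2 fold change 0.47, adjusted p = 0.316). It passed with the early granulocyte covariate, at 1.11 (adjusted p = 0.0119), and was -0.08 with the immediate early covariate (adjusted p = 0.840). Like Ddit3, it was highest in knockdown replicates 3 and 2 and then in scrambled replicate 1. Ppp1r15b, its constitutive relative, averaged 438 CPM in knockdown and 479 CPM in scrambled libraries (adjusted p = 0.434). Without knockdown replicate 3 the log2 fold change of Ppp1r15b was -0.26 and passed (adjusted p = 0.0235).

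Of the 10 tested bZIP partners and related factors 2 rose and 0 fell, beside 8.02% and 7.29% of all genes. Their median log2 fold change was 1.83, and 0.10 with the early granulocyte covariate. Cebpa, Cebpe, Jdp2 and Cebpd had log2 fold changes of 3.41, 3.40, 3.06 and 1.83. Their groups overlapped and none of them was called (adjusted p of 0.0683 or more by edgeR). Cebpa, Cebpe and Jdp2 were highest in knockdown replicate 4. Cebpe is also an early granulocyte marker and so is part of that covariate. Atf5, the closest relative of Atf4, rose to 21.6, 31.3, 40.2 and 37.8 CPM in knockdown replicates 1 to 4, against 21.1, 15.7, 13.7 and 20.1 CPM in scrambled replicates 1 to 4. The groups did not overlap, by under 1 CPM at the closest pair (log2 fold change 0.89, SE 0.21, adjusted p = 0.0287 by edgeR). Atf5 lost its call without knockdown replicate 2 or 4 or scrambled replicate 1, 2 or 3, with adjusted p of up to 0.0868, and with the immediate early covariate (0.84, adjusted p = 0.0584). Nupr1, a stress-induced nuclear protein that is itself no bZIP factor, rose to 10.6, 11.9, 9.30 and 7.66 CPM in knockdown replicates 1 to 4, against 3.11, 1.97, 2.42 and 3.33 CPM in scrambled replicates 1 to 4. The groups lay well apart (log2 fold change 1.87, SE 0.22, adjusted p = 0.00293 by edgeR), also when any 1 library was dropped (adjusted p up to 0.0165). Atf3 measured 34.4, 131, 111 and 22.3 CPM in knockdown replicates 1 to 4, and 41.6 CPM in scrambled replicate 1 with 9.40 to 21.9 CPM in the other 3 (adjusted p = 0.105). It too was highest in knockdown replicates 2 and 3 and then in scrambled replicate 1. Cebpb and Cebpg, partners of ATF4 at its element, had log2 fold changes of 0.42 and -0.20 (adjusted p = 0.219 and 0.204). The list's count was 6 by DESeq2 and 6 without knockdown replicate 3, fits that called 23.1% and 24.7% of all genes. It was 1 without knockdown replicate 2 or 4 or scrambled replicate 1, 2 or 3. Calls over the whole table fell from 2062 to 526 without scrambled replicate 2.

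Of 34 other tested ATF4 targets 5 rose and 0 fell, beside 8.02% and 7.29% of all genes; the median log2 fold change was 0.00. Stc2, which encodes the secreted protein stanniocalcin 2, rose to 1.81, 4.86, 3.36 and 3.29 CPM in knockdown replicates 1 to 4, against 0.139, 0.523, 0.260 and 0.719 CPM in scrambled replicates 1 to 4. The groups lay far apart at a low level (log2 fold change 3.06, SE 0.51, adjusted p = 0.00975 by edgeR). Slc7a11, the cystine transporter gene, rose to 7.95 ± 0.980 CPM in knockdown, against 2.63 ± 0.717 CPM in scrambled libraries (SD, n = 4 per group). Herpud1, a component of the degradation of endoplasmic reticulum proteins, Vegfa and the mitochondrial alanine transaminase gene Gpt2 rose by 0.88, 1.29 and 1.47 on the log2 scale. Dropping any 1 library left Stc2, Herpud1 and Slc7a11 past the threshold (adjusted p up to 0.0420); Vegfa lost it without knockdown replicate 2 or scrambled replicate 1, 2 or 3, and Gpt2 without any 1 library other than knockdown replicates 1 and 3 (adjusted p up to 0.108). With the early granulocyte covariate Gpt2 was 0.90 (adjusted p = 0.298), and with the immediate early covariate Vegfa was 0.86 (adjusted p = 0.0733). Ddit4 (REDD1), which holds back mTORC1, measured 37.8, 89.9, 82.4 and 28.1 CPM in knockdown replicates 1 to 4, and 103, 65.6, 42.1 and 27.8 CPM in scrambled replicates 1 to 4. Its log2 fold change of -0.01 (adjusted p = 0.993) was 0.80 with the early granulocyte covariate (adjusted p = 0.486) and -0.92 with the immediate early covariate, where it passed (adjusted p = 0.0347). The transporter genes Slc7a5 and Slc3a2 and the translation repressor gene Eif4ebp1 had log2 fold changes of 0.02, 0.15 and -0.16, with adjusted p of 0.308 or more. The list's count was 8 by DESeq2, where 23.1% of all genes were called. It was 3 without knockdown replicate 2 or scrambled replicate 1, 2 or 3. The whole table had 526 calls without scrambled replicate 2, beside 2062 with all libraries.

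The wider serine, glycine and folate enzymes were the neighbouring group with the most calls. Of 29 tested, 8 fell and 2 rose, beside 7.29% and 8.02% of all genes; the median log2 fold change was -0.04. The genes that fell included those that carry methyl groups from folate to methionine. Mtr, methionine synthase, fell to 91.6, 86.0, 101 and 82.5 CPM in knockdown replicates 1 to 4, against 148, 152, 162 and 112 CPM in scrambled replicates 1 to 4. No knockdown library reached the scrambled range (log2 fold change -0.67, SE 0.12, adjusted p = 0.0111 by edgeR). Mtrr, the reductase that reactivates it, fell to 50.4 ± 4.69 CPM in knockdown, against 74.6 ± 8.55 CPM in scrambled libraries (SD, n = 4 per group). Mat2a and Mat2b, the subunits of S-adenosylmethionine synthetase, fell by 0.33 and 0.31 on the log2 scale (adjusted p = 0.0129 and 0.0300).

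Mthfd1, the cytosolic enzyme with 3 folate activities, fell to 743, 873, 880 and 549 CPM in knockdown replicates 1 to 4, against 1218, 1171, 1126 and 1064 CPM in scrambled replicates 1 to 4. The groups did not overlap (log2 fold change -0.59, SE 0.14, adjusted p = 0.0281 by edgeR). Its mitochondrial relatives Mthfd1l and Mthfd2l had log2 fold changes of -0.04 and 0.06 (adjusted p = 0.707 and 0.798), beside 0.09 for Mthfd2; the difference between the cytosolic and mitochondrial genes was not tested. Sfxn1, which imports serine into mitochondria, fell to 302 ± 13.8 CPM in knockdown, against 367 ± 6.31 CPM in scrambled libraries, and Slc19a1, the reduced folate carrier gene, to 144 ± 21.2 CPM in knockdown, against 195 ± 14.6 CPM in scrambled libraries (SD, n = 4 per group; adjusted p = 0.0115 and 0.0290). Shmt1, the cytosolic counterpart of Shmt2, rose to 43.9, 47.3, 32.7 and 57.6 CPM in knockdown replicates 1 to 4, against 27.0, 31.1, 33.2 and 32.8 CPM in scrambled replicates 1 to 4. Knockdown replicate 3 lay within the scrambled range (log2 fold change 0.55, SE 0.16, adjusted p = 0.0468 by edgeR). Gcat, which acts in threonine breakdown, rose by 0.89 on the log2 scale (adjusted p = 0.0182). Aldh1l2, a mitochondrial folate dehydrogenase gene, stayed near or under 1 CPM on average in both groups, at 0.919 and 0.463 CPM in knockdown and scrambled libraries (adjusted p = 0.299).

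Mtr, Mtrr, Sfxn1 and Mat2a stayed past the threshold whichever library was dropped (adjusted p up to 0.0434). Mthfd1 and Slc19a1 lost it without knockdown replicate 1 or scrambled replicate 1, 2 or 3, Slc19a1 also without scrambled replicate 4, and Gcat without scrambled replicate 1, 2 or 3 (adjusted p up to 0.0836). Mat2b lost it without any 1 library other than knockdown replicate 3 and scrambled replicate 4, and Shmt1 without any 1 library other than knockdown replicate 3 (adjusted p up to 0.124). Without knockdown replicate 1 the list's calls were 5, and without scrambled replicate 1, 2 or 3 they were 4. Calls over the whole table also fell, from 2062 to 526 without scrambled replicate 2. In that fit Mthfd1 was -0.59 and Slc19a1 -0.46 on the log2 scale. With the early granulocyte covariate edgeR called 0 of the 29, with 8 at an unadjusted p under 0.05; Mtr was then -0.62 (adjusted p = 0.0573), Mthfd1 -0.35 (0.196) and Shmt1 0.14 (0.534). With all libraries and no covariate DESeq2 called 11 and limma-voom 9, where they called 23.1% and 13.1% of all genes. 

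Among paralogs of the 10 genes, 2 of 6 rose and 0 fell, beside 8.02% and 7.29% of all genes: Atf5, given above, and Trib1, a pseudokinase that directs C/EBP alpha to degradation. Trib1 rose to 7.17, 9.45, 1.33 and 7.92 CPM in knockdown replicates 1 to 4, against 1.17, 1.91, 1.64 and 1.08 CPM in scrambled replicates 1 to 4 (log2 fold change 2.15, SE 0.53, adjusted p = 0.0321 by edgeR). Knockdown replicate 3 lay within the scrambled range. With the early granulocyte covariate the change was 0.63 (adjusted p = 0.503), and a part of granulocyte content in the Trib1 values was not tested. Trib1 lost its call without any 1 library other than knockdown replicate 3 (adjusted p up to 0.0905). The fitted difference of Trib2 was -0.59 on the log2 scale (adjusted p = 0.585). Sesn1 and Sesn3, the other sestrins, averaged 39.7 ± 4.93 and 4.81 ± 5.03 CPM in knockdown, against 36.8 ± 2.54 and 1.30 ± 0.337 CPM in scrambled libraries (SD, n = 4 per group; adjusted p = 0.484 and 0.0984). Sesn3 passed with the immediate early covariate (2.33, adjusted p = 0.0247) and without knockdown replicate 3 (2.20, adjusted p = 0.0243). With the early granulocyte covariate Sesn3 was -0.24 (adjusted p = 0.852). Chac2 had a fitted difference of 0.07 on the log2 scale (adjusted p = 0.753). The list's calls were 0 without knockdown replicate 2 or 4 or scrambled replicate 1, 2 or 3, and 1 without knockdown replicate 1 or scrambled replicate 4. Over the whole table the fits with 1 library left out gave 526 to 3425 calls, beside 2062 with all libraries.

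Of 10 genes for the GATOR complexes and CASTOR proteins, through which sestrins and amino acids reach mTORC1, 2 fell and 0 rose, beside 7.29% and 8.02% of all genes, with a median log2 fold change of -0.05. Both encode GATOR2 subunits: Wdr59 fell to 38.2, 37.5, 43.7 and 38.3 CPM in knockdown replicates 1 to 4, against 51.7, 54.0, 62.3 and 45.9 CPM in scrambled replicates 1 to 4, and Wdr24 fell by 0.24 on the log2 scale. Neither gene's groups overlapped (adjusted p = 0.0231 and 0.0359 by edgeR). The list's calls were 0 without knockdown replicate 1 or 2 or scrambled replicate 1, 2 or 3, and 1 without knockdown replicate 4. The adjusted p of the pair then rose to 0.0836 at most. Whole-table calls went from 2062 to 526 without scrambled replicate 2. With the early granulocyte covariate edgeR called 2 other genes of the list higher and 0 lower, where it called 4.51% of all genes. Wdr59 was then -0.43 (adjusted p = 0.108) and Wdr24 was -0.25 (adjusted p = 0.156). With the immediate early covariate Wdr24 was -0.19 (adjusted p = 0.104).

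**Figure D4:**
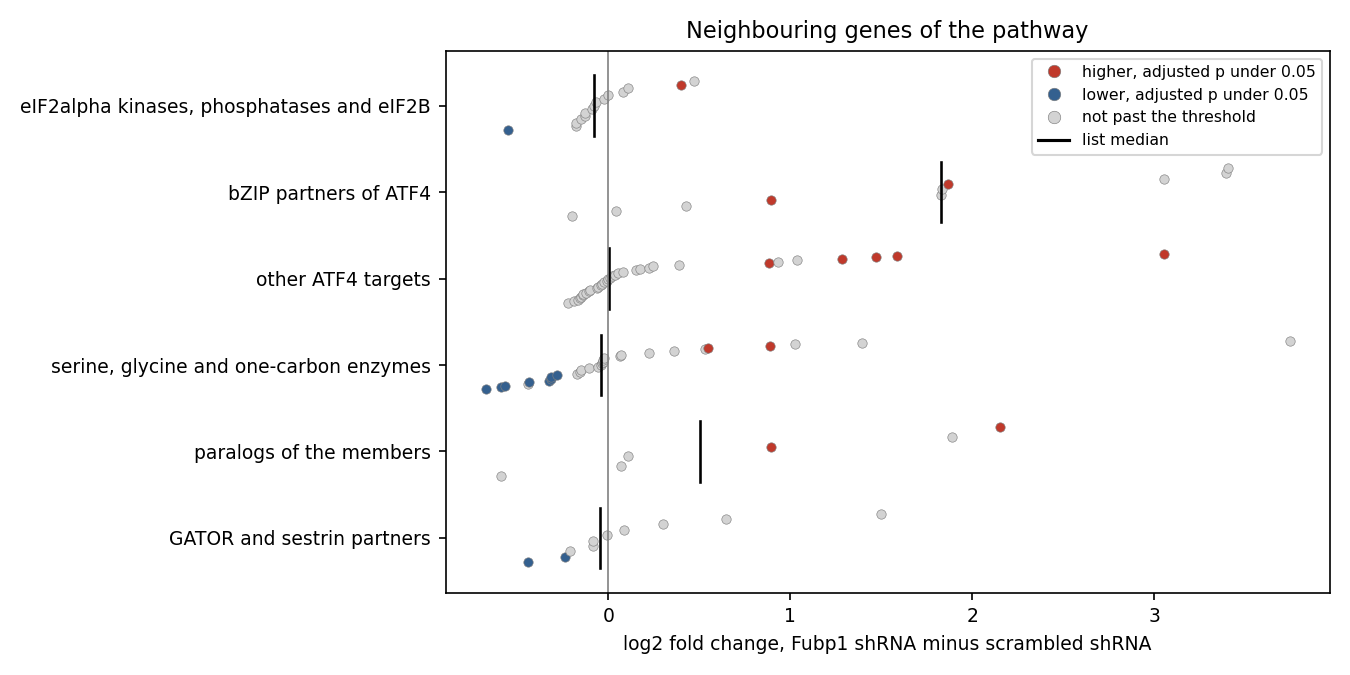
Log2 fold change, Fubp1 shRNA minus scrambled shRNA, of each tested gene in 6 neighbouring lists; red and blue points passed an adjusted p of 0.05 upward and downward, grey points did not, and black bars are list medians. The serine, glycine and one-carbon list holds 8 of the blue points, and the bZIP list has its median at 1.83 with 2 red points.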

How the data were processed

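The authors deposited whole-number read counts per gene, 1 column per library and not normalized, from libraries of ribosome-depleted total RNA that keep the strand, per the labels' protocols. Not given in the sources used here: aligner, counter, strand setting, annotation and genome build. The same table holds the authors' DESeq2 results: log2 fold changes, p-values and adjusted p-values, the mean normalized signal and the test's score (DESeq2 1.18.1, per the submitters' processing notes). The deposited fold changes were treated as moderated and not mixed with those here.

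The number in each column name was found in 1 sample's description, and its title gave the group; 0 per-sample columns were unmatched. The main test was edgeR's (version 4.0.16, R 4.3.3): filterByExpr, TMM scaling, robust quasi-likelihood fit on the group, F test with Benjamini-Hochberg adjustment over 13462 genes. Fold changes are knockdown minus scrambled, and intervals use the fit's moderated degrees of freedom. The fit was tested on simulated data. Alternatives used DESeq2 1.42.0, limma-voom (limma 3.58.1), other filters and scaling, covariates, a replicate block and each library left out. Covariates were the mean centred log2 CPM of a marker list. Within groups, library pairs differed by a chi-square of 10.7 to 88.9 per degree of freedom, so none was a copy. Gene positions, exon lengths and overlaps come from GENCODE M21 (GRCm38) by Ensembl ID, and promoters from RefSeq (GRCm38.p6).

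The 10 genes and the lists were chosen with earlier results of these data known. The rule for names took all 10 genes, a set list of relatives, and of each neighbouring list the called genes, at most 8 by p. Of the genes this rule names, 1 is not reported here.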

Additional observations from a re-analysis of the deposited data

Results flagged for a closer look

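Of 22 sets of 4 libraries checked for 1 value far from the others (Fubp1 and the 10 genes, in each group), 1 stood out: Fubp1 in scrambled replicate 4, at 396 CPM, with the other 3 scrambled libraries between 284 and 296 CPM. Chance alone would mark about 1 in 20 such sets. Without that library the log2 fold change of Fubp1 was -0.28.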

How the results depend on the processing

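Each result was refitted under 16 alternatives. Over the whole table, 2062 calls became 3588 by DESeq2, 400 with the replicate block and 607 with the early granulocyte covariate, and 526 to 3425 with 1 library left out. Among the 10 genes, 0 calls became 2 by DESeq2 (Phgdh 0.32, Sesn2 -0.44), 1 with no filter on low counts (Sesn2 -0.46), 2 with the early granulocyte covariate (Atf4 0.49, Trib3 1.87), 1 with the immediate early covariate (Sesn2 -0.55) and 0 to 3 with 1 library left out. The immediate early covariate turned the sign of Atf4 (-0.0066) and Ddit3 (-0.31), and left-out libraries that of Mthfd2 (-0.012 to 0.18); the cause was not tested. Fubp1 passed by DESeq2 (-0.39) and with no filter (-0.41). With 1 library left out the log2 fold changes ran from 0.04 to 0.26 in Atf4, 0.17 to 0.68 in Ddit3, 0.69 to 1.35 in Trib3, -0.38 to -0.14 in Asns, 1.28 to 2.32 in Chac1, 0.26 to 0.38 in Phgdh, -0.51 to -0.34 in Sesn2 and -0.46 to -0.28 in Fubp1.

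Of the neighbouring lists, DESeq2 called 6 bZIP partners, 8 other targets and 4 GATOR genes, beside 23.1% of all genes it tested. The replicate block called 1 of the eIF2 list, 1 bZIP partner, 3 other targets, 1 serine and folate enzyme, 0 paralogs and 1 GATOR gene. That fit called 400 genes of the whole table, beside 2062 in the main fit. No filter called 1 of the eIF2 list, 1 paralog and 1 GATOR gene, beside 6.08% of the genes with a count. By limma-voom 1 paralog was called, beside 13.1% of all genes. The early granulocyte covariate called 0 serine and folate enzymes and 1 paralog, beside 4.51% of all genes. The immediate early covariate called 4 bZIP partners and 1 GATOR gene, beside 18.4%. With 1 library left out the calls ran from 1 to 3 (eIF2 list), 1 to 6 (bZIP), 3 to 7 (other targets), 4 to 12 (serine and folate), 0 to 3 (paralogs) and 0 to 3 (GATOR). The whole table then had 526 to 3425 calls. Signs turned with the early granulocyte covariate in Eif2ak1 (0.069), Eif2ak3 (-0.011), Ppp1r15b (0.10), Mthfd1l (0.088), Mthfd2l (-0.038), Aldh1l2 (-0.32), Sesn3 (-0.24) and Ddit4 (0.80), with the immediate early covariate in Ppp1r15a (-0.077) and Slc7a5 (-0.031), in Ddit4 with a filter at 1 CPM (0.0075) and the block (0.017), and in Slc7a5 with no filter (-0.000278). With 1 library left out they also turned in Eif2ak3 (-0.027 to 0.15), Mthfd2l (-0.018 to 0.12), Chac2 (-0.043 to 0.13), Ddit4 (-0.28 to 0.38) and Slc7a5 (-0.022 to 0.054).

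Same-numbered samples did not deviate together (r = -0.42, 0.02, -0.56 and -0.22 for replicates 1 to 4), so the numbers pair nothing by this check. The 4 libraries per group and their spread limit the genes that vary most.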

Other observations

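Knockdown replicate 1, the lowest knockdown library for 7 of the 10 genes, held transcripts of bone matrix. Col1a1, a collagen gene of osteoblasts, measured 332, 0.198, 0 and 0.0871 CPM in knockdown replicates 1 to 4, against 0.777, 6.86, 0.0260 and 0.0450 CPM in scrambled replicates 1 to 4. Bglap, the osteocalcin gene, measured 7.17 CPM in that library and at most 0.462 CPM in the other 7. Their part in the values of the 10 genes was not tested. Without that library the smallest adjusted p of the 10 by edgeR was 0.0597, in Trib3, so none passed, as with all libraries.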
